A study of Mus musculus with 9 samples.

Results

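The genes described here encode the machinery that takes new proteins into and across the membrane of the endoplasmic reticulum (ER): the Sec61 channel, its partners Sec62, Sec63 and TRAM, the signal recognition particle (SRP) and its receptor, signal peptidase, the translocon-associated protein complex (TRAP) and the ER membrane protein complex (EMC). They were listed by symbol, 34 in all, and 33 of the 34 were rows of the deposited table of 16398 genes. The remaining symbol, Srpra, is the SRP receptor alpha subunit. The table lists that subunit under its older symbol Srpr, so its values are given beside the members and not counted with them.

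Proteins bound for secretion or for membranes carry a hydrophobic signal near their start, which SRP binds as it leaves the ribosome. SRP docks on its receptor at the ER, the ribosome passes to the Sec61 channel, and signal peptidase removes the signal while TRAP and TRAM assist at the channel. EMC inserts membrane segments that Sec61 does not handle alone. Cells that secrete much or whose ER is under stress are known to raise many of these genes through transcription factors of the unfolded protein response, XBP1 and ATF6.

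Messenger RNA was measured in BV2, an immortalised microglial cell line of the mouse. The knockdown644 group received siRNA 644 against Nus1, the knockdown878 group received siRNA 878 against Nus1, and the NC group was the control, with genotype given as WT. Each group had 3 libraries labelled as biological replicates, and RNA was taken 48 h after the start, made up of 24 h with siRNA and RNAiMAX and 24 h in fresh medium. Nus1 encodes a subunit of the enzyme that makes dolichol, the lipid carrier of N-glycosylation. The labels do not say what, if any, siRNA the NC cells received, nor whether the replicates were separate transfections, so a p-value here reflects the spread among these samples and that spread may be technical.

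Libraries held 19362292 to 20224686 estimated counts, and 11739 genes had enough to be tested. Levels are in CPM, the estimated count scaled to a common library total after TMM adjustment. Nus1 had 3.93, 4.15 and 3.46 CPM in knockdown644, 8.01, 3.73 and 8.35 CPM in knockdown878, and 51.4, 50.1 and 53.4 CPM in NC. Hspa5, which encodes the ER chaperone BiP, rose by 2.76 on the log2 scale in knockdown644 and by 2.66 in knockdown878 (edgeR adjusted p = 8.13e-07 and 1.05e-06). The 11 microglial markers summed to 3133 to 3391 CPM in knockdown644, 2520 to 3236 CPM in knockdown878 and 2924 to 3157 CPM in NC. Csf1r, Cd68, Spi1 and Trem2 were well expressed, while P2ry12 stayed under 2 CPM and Tmem119 under 4 CPM in every library. Cx3cr1 was 3.57, 4.25 and 3.98 CPM in knockdown644, 3.08, 3.05 and 3.17 CPM in knockdown878 and 26.8, 22.7 and 24.8 CPM in NC. Aif1 was 6.61, 4.84 and 5.74 CPM in knockdown644, 4.31, 4.69 and 2.82 CPM in knockdown878 and 8.40, 9.87 and 8.09 CPM in NC. Itgam was 140, 163 and 139 CPM in knockdown644, 101, 72.1 and 97.7 CPM in knockdown878 and 118, 122 and 138 CPM in NC. Csf1r was higher with both siRNAs, with means of 368 and 357 CPM against 305 CPM in NC. Trem2 was 491, 365 and 445 CPM in knockdown644 and 276, 445 and 254 CPM in knockdown878. In NC it was 234, 272 and 217 CPM. Its log2 fold change in knockdown644 was 0.85 (edgeR adjusted p = 0.0157). Cd68, at a mean of 1614.5 CPM in NC, made up much of the sum, which hides changes of markers at lower levels. Lists for neurons, astrocytes, oligodendrocytes, endothelium and fibroblasts summed to under 5 CPM each in every library, with Rbfox3, Snap25, Gfap, Cdh5 and Pdgfra at or near 0. Library knockdown878 replicate 2 stood apart. Its log2 CPM values deviated from the mean of its group with an SD of 0.398 over genes, against 0.149 to 0.280 in the other libraries, so results that rest on it are given with and without it.

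Promoter sequence was at hand for 24 of the 33 members, in 25 promoters, each 250 bases before to 50 after the gene's start (RefSeq, GRCm38.p6). The letters GCCACGT, a core bound by XBP1, were found on either strand in 5 of the 25, against 3.34% of the 16375 promoters of genes in the table and 2.58% of all 32851. The stretch of each of these promoters that holds it is shown 5′ to 3′ on the gene's strand, with GCCACGT in capitals, and Hspa5 is added because it holds a full ER stress response element (CCAAT and CCACG set apart by any 9 bases), in capitals.
Srprb, chr9:103202066-103202165, minus strand: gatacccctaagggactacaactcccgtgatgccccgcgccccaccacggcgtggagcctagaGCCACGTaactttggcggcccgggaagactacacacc
Sec63, chr10:42761396-42761495, plus strand: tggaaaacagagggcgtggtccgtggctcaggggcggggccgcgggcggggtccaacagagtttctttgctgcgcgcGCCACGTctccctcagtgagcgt
Ssr1, chr13:37994209-37994308, minus strand: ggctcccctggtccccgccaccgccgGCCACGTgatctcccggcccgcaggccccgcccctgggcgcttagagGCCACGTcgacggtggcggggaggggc
Spcs1, chr14:31001667-31001766, minus strand: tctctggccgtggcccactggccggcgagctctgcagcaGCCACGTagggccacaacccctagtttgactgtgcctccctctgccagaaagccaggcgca
Ssr3, chr3:65392674-65392773, minus strand: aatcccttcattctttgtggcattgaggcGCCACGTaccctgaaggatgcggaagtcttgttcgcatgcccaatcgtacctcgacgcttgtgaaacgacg
Hspa5, chr2:34771990-34772089, plus strand: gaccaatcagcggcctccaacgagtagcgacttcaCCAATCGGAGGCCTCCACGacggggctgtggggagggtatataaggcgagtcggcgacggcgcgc

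The Ssr1 stretch holds the letters in 2 places. Of the 13 members with a promoter that were called higher with both siRNAs, 4 held GCCACGT, and of the 11 others 1 did, which was Ssr3. Without knockdown878 replicate 2, Ssr3 too was called higher with both siRNAs. The share with GCCACGT among all genes called higher with both was not taken, so this split has no background beside it. None of the 25 promoters held the full element, the second element (ATTGG and CCACG set apart by any 1 base), TGACGTGG, its core TGACGTG or TGATGNAA, the form read by ATF4 and CHOP. These letters are rare in general: the full element was in 0.12%, the second element in 0.06%, TGACGTGG in 0.76%, TGACGTG in 2.45% and TGATGNAA in 2.70% of promoters of genes in the table. The shorter parts were common everywhere, with CCACG in 52.0% of member promoters against 42.62% of the table's and CCAAT in 32.0% against 37.76%. GCCACGT contains CCACG, TGACGTGG contains TGACGTG, and the full element contains both CCAAT and CCACG, so these shares are not separate observations. A match is a description of letters in this window and not a binding site.

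Most members were higher in the knockdown groups than in NC. Of the 33, 18 rose and 1 fell in knockdown644, where 16.6% of all genes tested rose and 15.0% fell, 31.6% either way (edgeR quasi-likelihood test, Benjamini-Hochberg adjusted over all genes, called under 0.05). In knockdown878, 20 rose and 1 fell, against 16.0% and 15.5% of all genes, 31.5% either way. The median log2 fold change of the members was 0.41 in knockdown644 and 0.52 in knockdown878, beside -0.01 and 0.00 over all genes tested. Averaged over both siRNAs, 20 members rose and none fell, against 19.1% and 18.5% of all genes, 37.6% either way. With both siRNAs 17 members rose, where 12.2% of all genes did, and no member fell with both, where 11.0% of all genes did. Both comparisons use the same 3 NC libraries, so the second is not an independent repeat of the first.

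Summed over the members, levels were 5892, 5398 and 5750.5 CPM in knockdown644, 5994, 6711 and 5940.3 CPM in knockdown878, and 3786, 3949 and 3732 CPM in NC. Each of the 6 knockdown libraries thus lay above each NC library. Before TMM adjustment, the members took 0.561% to 0.569% of counts in knockdown644, 0.602% to 0.608% in knockdown878 and 0.387% to 0.398% in NC. In RNA from whole cultures, a change in the share of cells of a kind and a change in RNA per cell cannot be told apart.

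**Figure D1:**
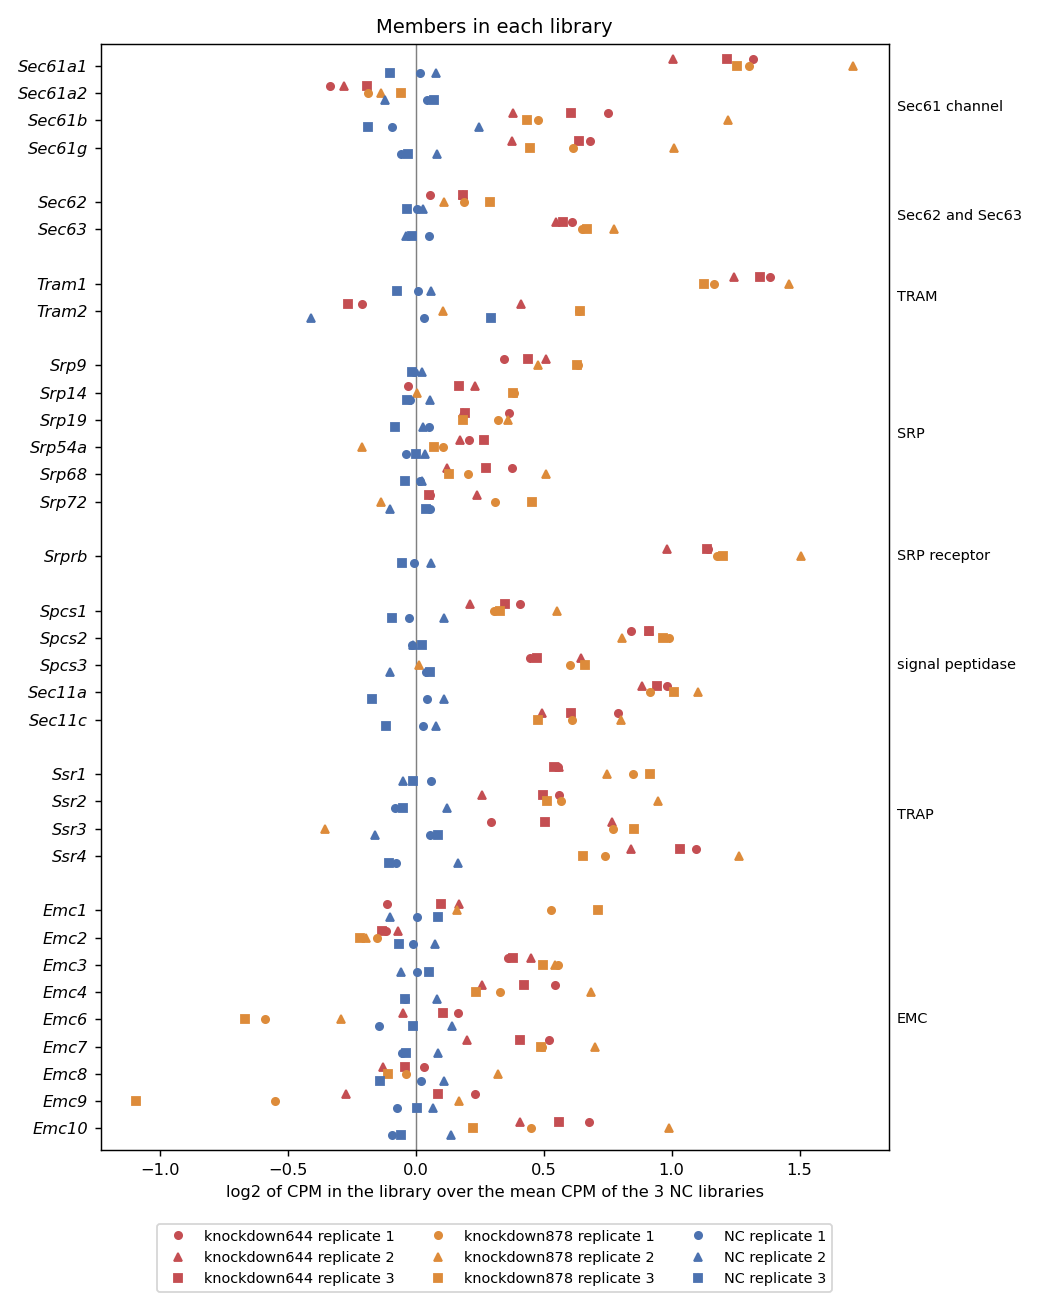
Each point is 1 library, placed by the log2 of its CPM over the mean CPM of the 3 NC libraries (horizontal axis), with the 33 members down the page by complex and the groups in colour. Points of both knockdown groups lie to the right of the NC points for Sec61a1, Tram1, Srprb, Spcs2 and Sec11a, and knockdown878 replicate 2 (orange triangles) departs from the other 878 libraries for Ssr3 and Emc9.

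By single libraries, 24 members lay wholly above NC in knockdown644, where 28.0% of all genes did, and 2 wholly below, where 27.7% did. In knockdown878, 22 lay wholly above and 2 wholly below, against 22.5% and 22.6% of all genes. For 21 members every knockdown library of both groups was above every NC library, where 18.6% of all genes were. Emc2, an EMC subunit on the cytosolic side, was the 1 member wholly below NC with both siRNAs, where 18.1% of all genes were, at 54.9, 56.7 and 54.2 CPM in knockdown644, 53.6, 52.0 and 51.2 CPM in knockdown878 and 59.0, 62.7 and 56.8 CPM in NC, and it was called in neither comparison.

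In SRP, which recognises the signal, 1 of 6 measured members rose in knockdown644 and 2 in knockdown878. Over all genes tested 16.6% and 16.0% rose, so 1 of 6 is near that share. Without knockdown878 replicate 2, 4 of the 6 rose in each comparison, where 25.3% and 20.4% of all genes did. That library is not part of knockdown644 or NC, but the spread is estimated over all groups together. Leaving it out thus changes calls in knockdown644 too, over all genes from 31.6% to 50.6% either way. The riser with both siRNAs was Srp9, which with Srp14 forms the part of the particle that slows translation. Srp9 had 93.5, 105 and 99.6 CPM in knockdown644, 114, 103 and 114 CPM in knockdown878 and 73.1, 74.7 and 72.8 CPM in NC, with no overlap between knockdown and NC libraries. Its log2 fold change was 0.43 (SE 0.075, edgeR adjusted p = 0.00273) in knockdown644 and 0.58 (SE 0.075, adjusted p = 0.000541) in knockdown878. Srp19, which helps assemble the particle, was called in knockdown878 at 0.29 (edgeR adjusted p = 0.0307) but not in knockdown644 at 0.25 (adjusted p = 0.0545). Without knockdown878 replicate 2 Srp19 was called in knockdown644 as well, at 0.25 (edgeR adjusted p = 0.0213). Its 878 call was lost without any single NC library, knockdown644 replicate 3 or knockdown878 replicate 1. It was also lost with library sizes alone, without a low-count filter and in a fit restricted to the pair of groups. The same held with offsets for GC content and length without knockdown878 replicate 2.

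Srp14 had 59.6, 71.5 and 68.4 CPM in knockdown644, 79.4, 61.0 and 79.1 CPM in knockdown878 and 59.9, 63.2 and 59.5 CPM in NC. Its groups overlapped, and its log2 fold changes of 0.13 and 0.27 were not called (edgeR adjusted p = 0.431 and 0.116). Without knockdown878 replicate 2 Srp14 was called in knockdown878, at 0.39 (edgeR adjusted p = 0.00613), as was Srp72, at 0.39 (adjusted p = 0.00572).

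Srp54a encodes the subunit that binds the signal and GTP. It had 81.5, 79.6 and 84.9 CPM in knockdown644, 76.1, 61.0 and 74.2 CPM in knockdown878 and 68.8, 72.5 and 70.6 CPM in NC. The mouse has near-identical copies, Srp54b and Srp54c, among which reads can be split, and Srp54b swung between 0 and 19.4 CPM over the libraries. The 3 copies together gave 187, 206 and 192 CPM in knockdown644, 206, 147 and 226 CPM in knockdown878, and 175, 164 and 172 CPM in NC. Of the 6 knockdown libraries, 5 were above all NC libraries in this sum, and knockdown878 replicate 2 was below them. Srp54a and Srp68, which with Srp72 holds the particle together, were called with neither siRNA (log2 fold changes 0.22 and -0.00 for Srp54a, 0.26 and 0.29 for Srp68). Without that library both were called in knockdown644, Srp54a at 0.21 (edgeR adjusted p = 0.0122) and Srp68 at 0.26 (adjusted p = 0.0111). These log2 fold changes hardly moved, and the calls came with the altered estimate of spread.

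The SRP receptor stood well above its NC level. Srprb, the beta subunit that anchors the receptor in the membrane, had 251, 225 and 250.1 CPM in knockdown644, 257, 323 and 261 CPM in knockdown878 and 113, 118 and 109.7 CPM in NC. No knockdown library overlapped NC. Srprb was 2.13-fold higher in knockdown644 (log2 SE 0.10, edgeR adjusted p = 0.000102) and 2.47-fold higher in knockdown878 (SE 0.10, adjusted p = 4.27e-05). The alpha subunit, listed as Srpr and outside the 33, had 271, 244 and 256 CPM in knockdown644, 271, 293 and 267 CPM in knockdown878 and 166, 160.0 and 162 CPM in NC. It rose by 0.66 and 0.77 on the log2 scale (edgeR adjusted p = 0.000206 and 9.42e-05).

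In the Sec61 channel, 2 of 4 members rose in knockdown644 and 3 of 4 in knockdown878, where 16.6% and 16.0% of all genes rose. Sec61a1, the pore-forming alpha subunit, had 658, 530.0 and 613 CPM in knockdown644, 649.9, 862 and 629.8 CPM in knockdown878 and 267, 279 and 246 CPM in NC. It was 2.28-fold higher in knockdown644 (edgeR adjusted p = 0.000312) and 2.71-fold higher in knockdown878 (adjusted p = 0.000113), the largest change of any member with 878. Its paralog Sec61a2 was lower in the 644 libraries. Sec61a2 had 32.6, 33.8 and 36.0 CPM in knockdown644, 36.1, 37.5 and 39.5 CPM in knockdown878 and 42.4, 37.8 and 43.1 CPM in NC, so the 644 libraries were all below NC and 1 of the 878 libraries overlapped it. It fell by 0.27 on the log2 scale in knockdown644 (SE 0.087, edgeR adjusted p = 0.044) and was not called in knockdown878 (-0.13, adjusted p = 0.306). The 644 call was lost without any single 644 library, NC replicate 1, NC replicate 3 or knockdown878 replicate 1. It was also lost with library sizes alone, without a low-count filter and with the replicate number as a block. Exons of Sec61a2 overlap those of Nudt5 on the opposite strand, and the strand setting of the counting is not given in the sources used here.

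The small subunits had smaller log2 fold changes than Sec61a1. Sec61b had 156, 121 and 141 CPM in knockdown644, 129, 216 and 125 CPM in knockdown878 and 86.8, 109.8 and 81.3 CPM in NC. All knockdown libraries were above NC. Knockdown878 replicate 2 lay 0.77 above the mean of the other 878 libraries on the log2 scale. With that library included, the log2 fold change of Sec61b was 0.76 in knockdown878 (SE 0.22, edgeR adjusted p = 0.0282). In knockdown644 it was 0.59 (SE 0.22, edgeR adjusted p = 0.0695), not called. Without knockdown878 replicate 2 Sec61b was called in knockdown644 too, at 0.58 (edgeR adjusted p = 0.0031). Its 878 call was lost without NC replicate 1 or 3 and in a fit restricted to the pair of groups. Sec61g, the gamma subunit that clamps the channel, had 73.2, 59.1 and 70.9 CPM in knockdown644, 69.7, 91.8 and 62.1 CPM in knockdown878 and 43.9, 48.3 and 44.6 CPM in NC, without overlap. It rose by 0.57 in knockdown644 (edgeR adjusted p = 0.018) and by 0.71 in knockdown878 (adjusted p = 0.00656) on the log2 scale. The 644 call of Sec61g was lost without knockdown644 replicate 1 or 3 or NC replicate 1 or 3.

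Sec62 and Sec63 serve proteins that reach the channel after translation, and Sec63 also brings BiP to it. Sec63 rose with both siRNAs. It had 99.6, 95.3 and 97.1 CPM in knockdown644, 102, 112 and 104 CPM in knockdown878 and 67.6, 63.5 and 64.7 CPM in NC, a narrow spread in each group. Its log2 fold changes were 0.58 and 0.70 (SE 0.068 and 0.068, edgeR adjusted p = 0.000354 and 0.000129). Sec62 had 38.0, 41.6 and 41.6 CPM in knockdown644, 41.7, 39.5 and 44.8 CPM in knockdown878 and 36.8, 37.4 and 35.7 CPM in NC. The knockdown libraries were all higher than NC, yet its log2 fold changes of 0.14 and 0.20 were not called (edgeR adjusted p = 0.212 and 0.0941). Without knockdown878 replicate 2, Sec62 was called in knockdown878, at 0.25 (edgeR adjusted p = 0.0312).

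Tram1, which sits beside the channel and helps membrane segments leave it, had the largest change of any member with 644. It had 299.7, 272 and 292 CPM in knockdown644, 257, 316 and 251 CPM in knockdown878 and 116, 119.6 and 109 CPM in NC. It was 2.51-fold higher in knockdown644 (edgeR adjusted p = 3.28e-05) and 2.39-fold higher in knockdown878 (adjusted p = 4.66e-05). Tram2, the paralog known for its part in collagen synthesis, had 2.31, 3.56 and 2.22 CPM in knockdown644, 4.16, 2.88 and 4.18 CPM in knockdown878 and 2.74, 2.01 and 3.27 CPM in NC. It was the lowest member, with as few as 41 counts in a library, its groups overlapped, and it was not called (0.01 and 0.49 on the log2 scale, edgeR adjusted p = 0.973 and 0.182).

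**Figure D2:**
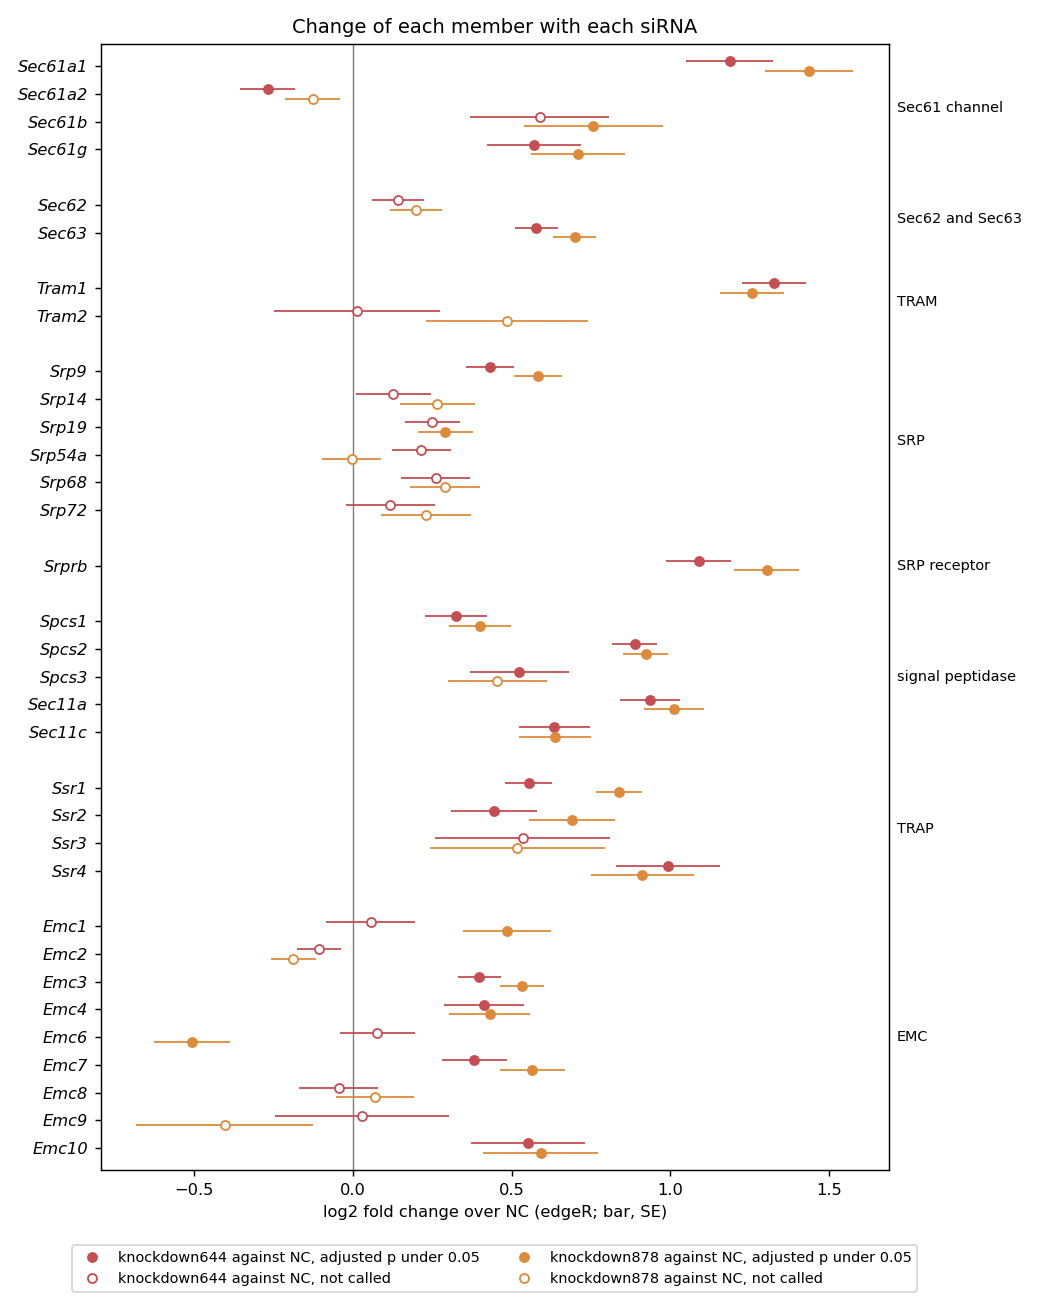
Log2 fold change over NC with its SE (horizontal axis) for each member, by complex, in knockdown644 (red) and knockdown878 (orange); filled points were called. Signal peptidase and TRAP are to the right of 0 throughout, while SRP and EMC spread from the region of 0, with Emc6 at -0.51 in knockdown878.

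In signal peptidase, which cuts the signal off, all 5 members rose in knockdown644 and 4 of 5 in knockdown878. Their medians were 0.63 and 0.64 on the log2 scale. Over all genes tested, 16.6% rose in knockdown644 and 16.0% in knockdown878. Sec11a, a catalytic subunit, had 69.3, 64.8 and 67.6 CPM in knockdown644, 66.3, 75.4 and 70.7 CPM in knockdown878 and 36.2, 37.9 and 31.2 CPM in NC. It was 1.91-fold and 2.02-fold higher (edgeR adjusted p = 0.000147 and 9.6e-05). Sec11c, the alternative catalytic subunit, had 89.3, 72.8 and 78.6 CPM in knockdown644, 79.0, 90.0 and 71.99 CPM in knockdown878 and 52.7, 54.6 and 47.7 CPM in NC, again without overlap. Its log2 fold changes were 0.63 and 0.64 (edgeR adjusted p = 0.00298 and 0.0028). Exons of Sec11a share bases with Nmb on the same strand.

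Spcs2, an accessory subunit that links the peptidase to the channel, had 273, 286 and 286 CPM in knockdown644, 302, 266 and 297 CPM in knockdown878 and 151, 151 and 155 CPM in NC. Its log2 fold changes were 0.89 and 0.92 with SE 0.071 and 0.071 (edgeR adjusted p = 4.45e-05 and 4.12e-05). Spcs1, a further accessory subunit whose promoter is shown above, rose by 0.32 and 0.40 (edgeR adjusted p = 0.0333 and 0.0137). Spcs3, which the catalytic subunits need for activity, had 197, 227 and 201 CPM in knockdown644, 220.3, 146 and 229.5 CPM in knockdown878 and 149, 135 and 151 CPM in NC. It was called in knockdown644 (0.52, edgeR adjusted p = 0.0326) and not in knockdown878 (0.46, adjusted p = 0.0539), where replicate 2 lay within the NC range. Without that library it rose by 0.64 in knockdown878 (edgeR adjusted p = 0.000228). In knockdown644 the calls of Spcs1 and Spcs3 were lost with the replicate number as a block and without knockdown644 replicate 1 or 3 or NC replicate 1 or 3, that of Spcs3 also without either other library of these groups, and in knockdown878 that of Spcs1 was lost without NC replicate 1 or 3. The 644 call of Spcs3 was also lost with library sizes alone and with limma on FPKM.

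TRAP binds the ribosome and the channel and helps signals that open the channel poorly, and 3 of its 4 members rose with each siRNA. Over all genes tested, 16.6% rose in knockdown644 and 16.0% in knockdown878. Ssr4, the delta subunit, had 254, 213 and 243 CPM in knockdown644, 199, 286 and 187 CPM in knockdown878 and 113, 133 and 111 CPM in NC. Its log2 fold changes were 0.99 and 0.91 (SE 0.16 and 0.16, edgeR adjusted p = 0.00203 and 0.00295). The 878 value of Ssr4 includes knockdown878 replicate 2, which lay 0.57 above the mean of the other 878 libraries on the log2 scale. Ssr1, the alpha subunit, had 636, 637 and 628 CPM in knockdown644, 777, 724 and 815 CPM in knockdown878 and 449.7, 417 and 429 CPM in NC. Its 3 groups did not overlap one another. It rose by 0.55 and 0.84 on the log2 scale (edgeR adjusted p = 0.000637 and 7.18e-05).

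Ssr2, the beta subunit, had the highest level per length of any member, at 988 ± 70.6 FPKM in knockdown644, 1139 ± 108 FPKM in knockdown878 and 750.2 ± 43.9 FPKM in NC (SD, n = 3 each). In CPM it had 1092, 887 and 1046 in knockdown644, 1099, 1429 and 1058 in knockdown878 and 701, 806 and 716 in NC. It rose by 0.44 and 0.69 on the log2 scale (edgeR adjusted p = 0.0346 and 0.00488), and its 644 call was lost with the block and without knockdown644 replicate 1 or 3 or NC replicate 1 or 3. Ssr3, the gamma subunit, spans the membrane several times. Ssr3 had 139.9, 194 and 162 CPM in knockdown644, 195, 89.1 and 206 CPM in knockdown878 and 119, 102 and 121 CPM in NC. Library knockdown878 replicate 2 was below all NC libraries and the other 878 libraries far above them, and Ssr3 was not called (0.54 and 0.52, edgeR adjusted p = 0.171 and 0.187). Without that library it rose by 0.53 in knockdown644 (edgeR adjusted p = 0.00432) and by 0.82 in knockdown878 (adjusted p = 0.000827).

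EMC was mixed: 4 of its 9 members listed here rose in knockdown644, and 5 rose and 1 fell in knockdown878. Over all genes tested, 16.6% rose in knockdown644, and 16.0% rose and 15.5% fell in knockdown878. The median log2 fold change of these 9 was 0.08 in knockdown644 and 0.43 in knockdown878. The 4 that rose with both were Emc3, Emc4, Emc7 and Emc10. Mmgt1, a further EMC subunit, was not among the members and was counted with the other genes below. It had 22.2, 32.2 and 24.7 CPM in knockdown644 and 36.9, 19.1 and 42.7 CPM in knockdown878. In NC it had 35.0, 30.9 and 37.9 CPM. By edgeR Mmgt1 was not called in knockdown644. The authors' deposited table gave it -0.40 (q = 0.0369) there and -0.07 (q = 0.934) in knockdown878. Emc3 forms the insertion path together with Emc6, and rose by 0.40 and 0.53 (edgeR adjusted p = 0.00254 and 0.00052). Emc7, a subunit with a domain in the ER lumen, had 147, 118 and 136 CPM in knockdown644, 145, 167 and 144 CPM in knockdown878 and 98.9, 109 and 99.8 CPM in NC, all knockdown libraries above NC. Its log2 fold changes were 0.38 and 0.57 (edgeR adjusted p = 0.0206 and 0.00316). Emc4 and Emc10 rose by 0.41 and 0.55 in knockdown644 and by 0.43 and 0.59 in knockdown878, with edgeR adjusted p from 0.03 to 0.0454. The 878 values include knockdown878 replicate 2, which lay 0.40 and 0.65 above the mean of the other 878 libraries on the log2 scale. The calls of Emc4 and Emc10 were lost in both comparisons with the replicate number as a block and without NC replicate 1, NC replicate 3 or knockdown644 replicate 3. In knockdown644 both, and Emc7, were also lost without knockdown644 replicate 1, and Emc7 with the block and without knockdown644 replicate 3 or NC replicate 1 or 3. The call of Emc10 was further lost in both comparisons without knockdown878 replicate 1, and in knockdown644 without knockdown644 replicate 2 or NC replicate 2. In knockdown878 the calls of Emc4 and Emc10 were also lost in a fit restricted to the pair of groups. That of Emc7 in knockdown644 was also lost with offsets for GC content and length.

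Emc6, a partner of Emc3 in the insertion path, was the 1 member that fell in knockdown878. It had 115, 98.6 and 110.1 CPM in knockdown644, 68.0, 83.3 and 64.3 CPM in knockdown878 and 92.4, 113 and 101 CPM in NC. All 878 libraries were below all others, and 644 overlapped NC. It fell by 0.51 on the log2 scale in knockdown878 (SE 0.12, edgeR adjusted p = 0.0118) and was not called in knockdown644 (0.08, adjusted p = 0.646). Emc1, the large lumenal subunit, had 58.4, 71.0 and 67.5 CPM in knockdown644, 91.0, 70.6 and 103 CPM in knockdown878 and 63.3, 58.9 and 67.1 CPM in NC. It rose in knockdown878 (0.49, SE 0.14, edgeR adjusted p = 0.028) and was not called in knockdown644 (0.06, adjusted p = 0.78). The 878 call was lost without any single NC library and without knockdown878 replicate 1 or 3. It was also lost with library sizes alone, with limma on FPKM and in a fit restricted to the pair of groups.

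Emc8 and Emc9 are paralogs that take the same place in the complex. Emc8 had 77.6, 69.5 and 73.8 CPM in knockdown644, 73.9, 95.0 and 70.5 CPM in knockdown878 and 77.0, 81.9 and 69.0 CPM in NC, with overlapping groups and no call (-0.04 and 0.07, edgeR adjusted p = 0.804 and 0.701). Emc9 had 9.18, 6.47 and 8.32 CPM in knockdown644, 5.34, 8.81 and 3.67 CPM in knockdown878 and 7.44, 8.20 and 7.85 CPM in NC. It was not called (0.03 and -0.40, edgeR adjusted p = 0.946 and 0.305), and without knockdown878 replicate 2 it fell by 0.79 in knockdown878 (adjusted p = 0.0086). Exons of Emc8 overlap Cox4i1 and those of Emc9 overlap Psme1, both on the opposite strand, and Emc1 shares exon bases with Ubr4 on its own strand.

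**Figure D3:**
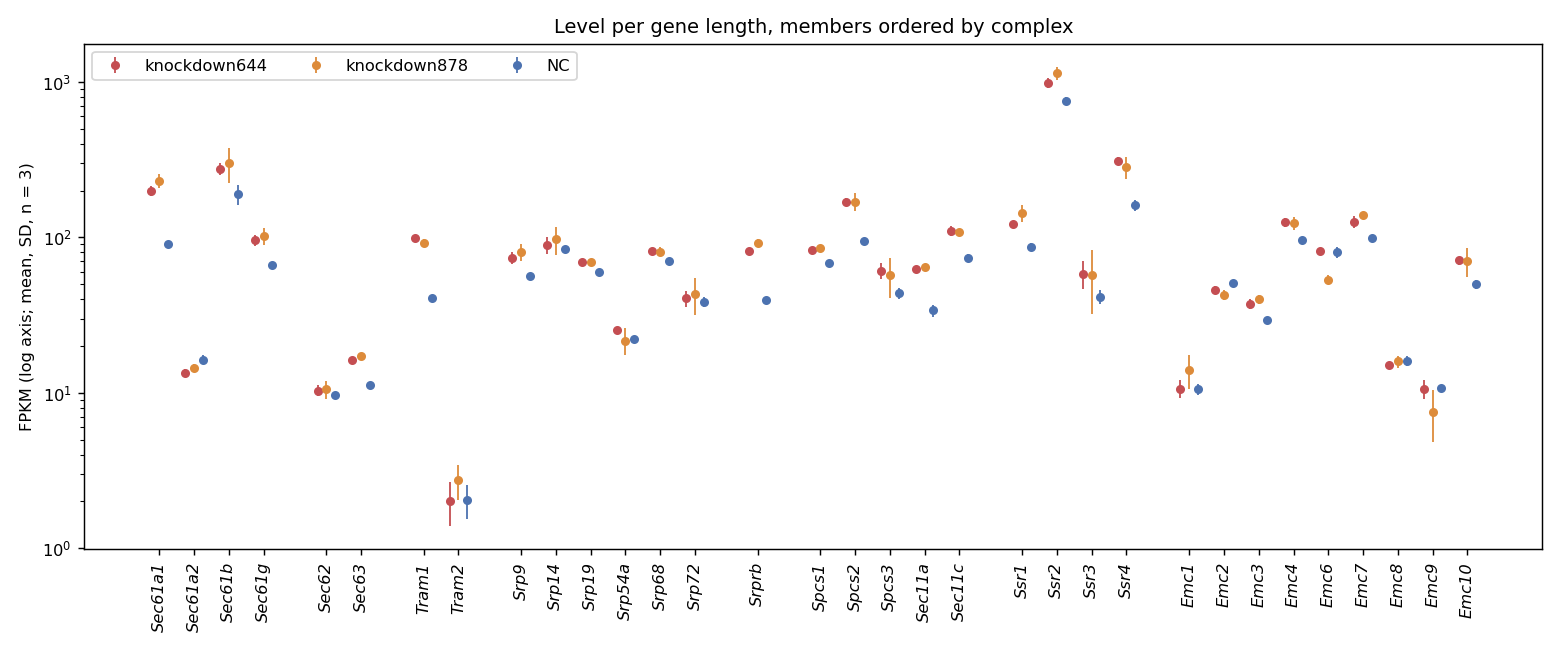
Mean FPKM with SD (n = 3; log axis) of each member in knockdown644, knockdown878 and NC, ordered by complex. Members of 1 complex differ widely in level, from Ssr2 at 750.2 FPKM to Ssr3 at 41.4 FPKM in NC within TRAP.

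Per length, the members were abundant in NC, with a median of 51.2 FPKM against 11.2 FPKM over all genes tested, and 84.4% of tested genes were below the members' median. They ran from Tram2 at 2.05 ± 0.513 FPKM to Ssr2 at 750.2 ± 43.9 FPKM in NC (SD, n = 3 each). Within complexes the extremes in NC were Sec61b at 189 ± 27.4 and Sec61a2 at 16.4 ± 1.14 FPKM, Srp14 at 84.4 ± 1.31 and Srp54a at 22.2 ± 0.440 FPKM, Spcs2 at 94.3 ± 2.73 and Sec11a at 33.9 ± 3.02 FPKM, and Emc7 at 99.2 ± 3.61 and Emc1 at 10.5 ± 0.844 FPKM. Sec63 at 11.2 ± 0.515 and Sec62 at 9.62 ± 0.146 FPKM were close. Across the 33 members, the log2 fold change had a Spearman correlation with NC FPKM of 0.42 in knockdown644 and 0.35 in knockdown878, both sharing the NC libraries with the level itself.

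The make-up of paralog pairs was set side by side between groups. Sec61a2 gave 6.29 ± 0.62% of the pair's FPKM with Sec61a1 in knockdown644, 5.95 ± 0.757% in knockdown878 and 15.3 ± 1.32% in NC (SD, n = 3 each). Tram2 gave 2.00 ± 0.644% of its pair with Tram1 in knockdown644, 2.93 ± 0.86% in knockdown878 and 4.80 ± 1.28% in NC. Both shares were lower in every knockdown library than in every NC library. Sec11c gave 63.7 ± 1.63% of its pair with Sec11a in knockdown644, 62.5 ± 2.16% in knockdown878 and 68.4 ± 0.701% in NC, again without overlap. Emc9 gave 41.1 ± 3.03% of its pair with Emc8 in knockdown644, 31.6 ± 6.1% in knockdown878 and 40.0 ± 2.09% in NC, and all 878 libraries and 1 of the 644 libraries lay below the lowest NC library, at 38.5%. With 3 libraries a group, no test was run on these shares.

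Set against each other, knockdown878 and knockdown644 differed in no member by the main test, where 0.315% of all genes were higher and 1.19% lower in 878, 1.51% either way. Unadjusted, 4 members had edgeR p under 0.05, 2 higher and 2 lower in 878. The share of all genes under that unadjusted threshold is not given here, so this count cannot be set against the adjusted shares. DESeq2 called 2, Ssr1 higher and Emc6 lower, where it called 2.33% of all genes higher and 3.53% lower. Log2 fold changes of 878 over 644 ran from -0.58 to 0.47. The lowest was Emc6, at -0.58 (SE 0.12, edgeR adjusted p = 0.0529). Ssr1 at 0.29 (edgeR adjusted p = 0.0955), Emc1 at 0.43 (adjusted p = 0.178) and Emc9 at -0.43 (adjusted p = 0.542) are given because of their values, after these were seen. Without knockdown878 replicate 2, these were the 4 members called, Emc6 at -0.69 (edgeR adjusted p = 0.00404), Ssr1 at 0.34 (adjusted p = 0.012), Emc1 at 0.58 (adjusted p = 0.00969) and Emc9 at -0.81 (adjusted p = 0.0239). In that fit 8.22% of all genes were called higher and 9.26% lower in 878, so 4 of 33 is no more than the share over all genes. In the authors' deposited table, Emc6 was the 1 member with q under 0.05 between the siRNAs, with a log2 fold change, 878 over 644, of -0.57 and q = 0.00935, where 0.51% of genes were higher and 1.1% lower.

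**Figure D4:**
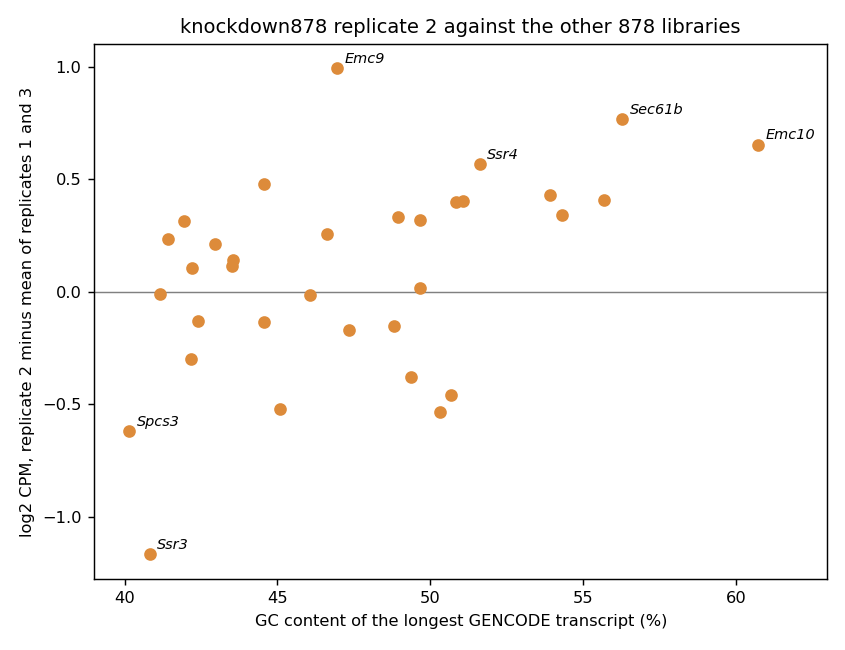
Each point is a member, with the GC content of its longest GENCODE transcript on the horizontal axis and, on the vertical axis, its log2 CPM in knockdown878 replicate 2 minus the mean of replicates 1 and 3. Ssr3 at -1.17 and Emc9 at 0.99 are the extremes, and the points rise with GC content.

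The deviation of each library from the others of its group was set against transcript composition. That of knockdown878 replicate 2 had a Spearman correlation of 0.52 with transcript GC content and -0.48 with transcript length over the 33 members, which share 1 library and are not independent. In the other 8 libraries these correlations ran from -0.51 to 0.35 for GC content and from -0.49 to 0.63 for length. Knockdown878 replicates 1 and 3, at -0.51 and -0.50 for GC content, were compared with a mean that includes replicate 2. Their values are thus not separate from those of replicate 2. In the knockdown644 and NC libraries the GC correlations ran from -0.39 to 0.35. The extremes of knockdown878 replicate 2, Ssr3 at -1.17 and Emc9 at 0.99 on the log2 scale, were wider than those of any other library. Without that library, 23 members rose and 1 fell in knockdown644, where 25.3% of all genes rose and 25.3% fell, and 25 rose and 2 fell in knockdown878, where 20.4% and 20.3% of all genes did. With offsets for GC content and length, which were added once the values were known, 23 rose and 1 fell in knockdown644, against 22.4% and 22.6% of all genes, and 25 rose and 1 fell in knockdown878, against 23.9% and 22.8%. Between the siRNAs these offsets called 4 members higher and 1 lower in 878, against 4.31% and 5.43% of all genes. With the offsets and without that library, 25 rose and 1 fell in knockdown644, against 28.5% and 29.0% of all genes, and 26 rose and 2 fell in knockdown878, against 26.3% and 25.8%. In that fit 10 members differed between the siRNAs, 5 higher and 5 lower in 878, where 12.8% and 12.2% of all genes did, a share of members near that of all genes. The members' counts thus grew together with the calls over all genes. Ssr1 was called between the siRNAs with neither form of the offsets. The part of knockdown878 replicate 2 in the differences of single members was not tested beyond these values.

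The authors' deposited table called 23 members higher and 1 lower in knockdown644 (q under 0.05), where it called 16.0% and 16.6% of genes. For knockdown878 it called 20 higher and 1 lower, where it called 10.0% and 9.8% of genes.

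Other genes of protein entry and insertion were listed too, and 26 were in the table. Of these 10 rose and 1 fell in knockdown644, 12 rose and 2 fell in knockdown878, and 9 rose and 1 fell with both. Of all genes tested, 16.6% rose and 15.0% fell in knockdown644, 16.0% and 15.5% in knockdown878 and 12.2% and 11.0% with both. The median log2 fold change was 0.21 and 0.40. H13, the signal peptide peptidase that cuts spent signals in the membrane, had 597, 529 and 592 CPM in knockdown644, 592, 759.7 and 580.5 CPM in knockdown878 and 243, 268 and 242 CPM in NC. It rose by 1.19 and 1.36 on the log2 scale (edgeR adjusted p = 0.000133 and 6.69e-05). Ccdc47, of the machinery that inserts proteins with many membrane segments, had 100.2, 117 and 93.0 CPM in knockdown644, 138, 90.4 and 143 CPM in knockdown878 and 54.4, 41.4 and 50.5 CPM in NC.

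Ccdc47 rose by 1.08 and 1.35 (edgeR adjusted p = 0.00246 and 0.000761). Serp1, a small protein that stabilises new membrane proteins at the channel under stress, rose by 0.88 and 1.14 (edgeR adjusted p = 0.008 and 0.00221). Rrbp1, a ribosome-binding protein of the rough ER, rose by 0.59 and 0.73, and Ubl4a, which acts in the delivery of tail-anchored proteins, rose by 0.54 and 0.83, with edgeR adjusted p from 0.000731 to 0.0275. Ktn1, encoding the ER membrane protein kinectin, fell with both siRNAs, with log2 fold changes of -0.54 and -0.57 (edgeR adjusted p = 0.0341 and 0.0273). By group, 3 of 7 genes of the multipass machinery rose with each siRNA, and of 7 genes of tail-anchored insertion 2 rose in knockdown644 and 3 in knockdown878, where 16.6% and 16.0% of all genes rose.

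Several members share their start region with a gene read the other way. In GENCODE (GRCm38), 7 members have a protein-coding gene starting on the opposite strand within 1000 bases. Alg2, a mannosyltransferase of N-glycan assembly that starts 325 bases from Sec61b, rose by 1.40 and 1.21 on the log2 scale (edgeR adjusted p = 1.74e-05 and 4.19e-05). Fancd2, a DNA repair gene that starts 30 bases from Emc3, moved opposite to it, with log2 fold changes of -1.06 and -1.24 (edgeR adjusted p = 0.00421 and 0.00177). The neighbours of Srp54a, Ssr4, Emc1, Emc6 and Emc10 were not called.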

How the data were processed

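The members, gene lists and tests were chosen with earlier results of these data known. The table as deposited gives an estimated count for each gene, not rounded by the authors (37.4% of nonzero values were not whole within 1e-09), FPKM made by the authors, and columns of the authors' own log2 fold changes with q-values from DESeq2, as the file headers state. Per the submitters' processing notes, the work used Bowtie2 2.4.5, DESeq2 1.34.0 and mm39. How reads were counted, with which annotation and strand setting, is not given in the sources. Libraries were made from 2 µg of total RNA with an mRNA kit, per the labels. Groups were taken from sample titles. The 9 columns of TPM per sample were not used.

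Estimated counts were rounded and filtered with filterByExpr (minimum count 10, minimum total 15), which kept 11739 genes, all 33 members among them. Tests used the quasi-likelihood F-test of edgeR 4.0.16 (R 4.3.3) with TMM factors, 1 model for the 9 samples and a term for group, and p-values were adjusted by Benjamini-Hochberg over all genes tested. SEs were obtained as the absolute log2 fold change over the root of F. The procedure was also run on simulated counts with few genes changed and no deviating library. The data differ from that setting in both respects, and no result here rests on that run.

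Full values were given for the 10 members with the largest smaller change among those called alike with both siRNAs, members called lower or between the siRNAs, the 4 paralog pairs and the highest and lowest member of each complex by NC FPKM. Emc2, Srp9, Srp19, Srp68, Srp72, Spcs1, Spcs3, Emc3, Emc4, Emc10 and Mmgt1 were named after their values were seen. Alternatives were RLE normalization, library sizes alone, DESeq2 1.42.0, other filters, a block for replicate number, fits restricted to the pair of groups, limma 3.58.1 on FPKM, and leaving out each library. Offsets for GC content and length, alone and without knockdown878 replicate 2, were chosen after seeing the data and cover 96.0% of the table's genes. Promoters were matched by symbol.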

Additional observations from a re-analysis of the deposited data

How the results depend on the processing

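Of the 19 members called in knockdown644, 11 kept their call under each of 20 alternatives, as did 15 of the 21 called in knockdown878. Those with both siRNAs were Emc3, Sec11a, Sec11c, Sec61a1, Sec63, Spcs2, Srp9, Srprb, Ssr1, Ssr4 and Tram1, and with 878 also Emc6, Emc7, Sec61g and Ssr2. Kept calls were not counted over all genes. Whether calls of members were kept more or less often than those of other genes cannot be told. Whether replicate numbers pair the libraries could not be told. Deviations of same-numbered libraries had correlations from -0.686 to 0.548 over 9 pairs, and those of other pairs from -0.548 to 0.625 over 18. Deviations from a group mean cancel within each group of 3, so these correlations are not free of one another. With the replicate number as a block, 12 members were called in knockdown644 in place of 19, and 19 in knockdown878 in place of 21, while calls over all genes were 24.3% and 24.6% in place of 31.6% and 31.5%. Leaving out 1 library at a time gave 11 to 24 calls in knockdown644, with 11 without knockdown644 replicate 1 or 3 or NC replicate 1 or 3. The same gave 15 to 27 calls in knockdown878, with 15 without NC replicate 1 or 3, and 0 to 4 between the siRNAs. The highest counts, 24, 27 and 4, were all without knockdown878 replicate 2. Over all genes, the same gave 19.8% to 50.6% called in knockdown644, 20.7% to 40.7% in knockdown878 and 0.101% to 17.5% between the siRNAs. Between the siRNAs, library sizes alone and a filter of 1 CPM in 3 samples each called 1 member, Emc6, against 2.54% and 1.89% of all genes. Limma on log2(FPKM + 1) or log2(FPKM + 0.1) also called only Emc6, against 3.15% and 2.75%. Among 33 members, 1 call is near these shares. DESeq2 called 2 (5.86% of all genes) and GC and length offsets 5 (9.73%). Those offsets with knockdown878 replicate 2 left out called 10 (24.9%). The median log2 fold changes kept their direction throughout, and the cause of these changes was not tested.

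Among the 23 members given full values, signs against NC turned only for members near 0 that were not called. Between the siRNAs only Emc1, Emc6, Emc9 and Ssr1 were followed, and none of them turned. Signs of the other members were not followed. Srp54a in knockdown878 was 0.0006 with RLE, 0.0011 with DESeq2, 0.16 with offsets, 0.0734 with offsets and without knockdown878 replicate 2, and -0.0626 to 0.0976 with 1 library left out. Emc8 in knockdown878 was -0.0153 with library sizes alone, -0.0149 and -0.0158 with limma, -0.0979 with offsets and without knockdown878 replicate 2, and -0.0661 to 0.15 with 1 library left out. In knockdown644, Emc9 was -0.0197 with library sizes alone, -0.0221 and -0.0246 with limma, and -0.0821 to 0.16 with 1 library left out. Tram2 in knockdown644 was -0.0266 with library sizes alone, -0.0233 and -0.0357 with limma, and -0.24 to 0.18 with 1 library left out. Likewise left out 1 at a time, Emc1 ran from -0.0039 to 0.13 and Emc8 from -0.11 to 0.0111 in knockdown644. Tram2 had the fewest counts of any member, down to 41 in a library.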
